A study of Ovis aries with 2 samples.

Results

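Cells of E16 sheep embryos that met a marker rule for presomitic mesoderm were examined, 318 of 24137 cells in all, of which 300 came from Hulunbuir short-tail embryos and 18 from Ujumqin embryos. That name is poorly backed for most of the 18 Ujumqin cells. The 13 of them without CER1 had a median of 83583 UMIs. In 11 of these, TBX6, MSGN1, HES7, MESP2 and RIPPLY2 together gave a single UMI. That alone does not set them apart, since few UMIs of these genes were also common in the Hulunbuir cells, whose median was 13512 UMIs. A cell was a member when it had a UMI (a unique molecular identifier, counted for each RNA molecule read) in at least 2 of the 7 genes TBX6, MSGN1, DLL1, DLL3, HES7, MESP2 and RIPPLY2. At least 1 of these had to be TBX6, MSGN1, HES7, MESP2 or RIPPLY2. DLL1 and DLL3 alone, which neural cells also use, were not enough. The members were thus chosen by the measured UMIs of these genes, and the values of the rule genes are a description with no test.

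The study took embryos on day 16 after mating from the Ujumqin breed, which has a fat tail, and from the Hulunbuir short-tail breed, whose tail is smaller, and gave Ujumqin as the control group. Extraembryonic tissue was removed, the cells were freed by enzymes, red blood cells were lysed, and droplet-based single-cell libraries were made from the 3' ends of polyadenylated RNA. Embryos of a breed were pooled and the cells cannot be assigned to an embryo, so that each breed is 1 library without replicate and no test between breeds was run. Apart from the breed, the labels give both groups the same stage and handling.

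Presomitic mesoderm is the unsegmented tissue that flanks the neural tube behind the youngest somite. It is fed from progenitors in the tail bud, and blocks of it are cut off at its front end as somites, from which vertebrae and trunk muscle arise. In textbook accounts, FGF and WNT ligands are high at its posterior end, a Notch-based oscillator with HES7 and LFNG runs through it, and MESP2 and the RIPPLY proteins mark the place where the next boundary forms. TBX6 and MSGN1 are transcription factors of its posterior and middle part, and DLL1 and DLL3 are Notch ligands.

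The Hulunbuir library held 131385353 UMIs over 10709 barcodes, and the Ujumqin library 212933364 over 17059. A filter of 200 genes as the minimum and less than 10% of UMIs from mitochondrial genes left 9583 Hulunbuir and 14554 Ujumqin cells with medians of 11879 and 9519 UMIs. The libraries stood apart in red blood cells, since 5969 kept Ujumqin cells and 5 kept Hulunbuir cells had UMIs in at least 2 of 6 erythroid markers. The libraries shared 61 barcodes, 50 of them among kept cells of both. No barcode was a member in both, and 4 members carried a shared barcode.

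Members made up 3.13% of the kept Hulunbuir cells (95% exact binomial interval 2.79 to 3.50) and 0.124% of the kept Ujumqin cells (0.0733 to 0.195). All intervals cover counting error only. Among kept cells that did not meet the erythroid rule the shares were 3.13% and 0.151% (13 of 8585 cells). When cells were thinned to 5000 UMIs and shallower cells were left out, 131 of 7540 Hulunbuir cells (1.74%) and 3 of 8069 Ujumqin cells (0.0372%) met the rule. With 1 pool per breed, breed and pool cannot be told apart. The Hulunbuir members had a median of 13512 UMIs and 2355 genes, near the library's own median. The Ujumqin members had a median of 72237 UMIs, far above that of their library.

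In the 300 Hulunbuir members, DLL3 was the most frequent rule gene, with a UMI in 275 cells (91.7%), followed by DLL1 in 197 (65.7%) and RIPPLY2 in 132 (44.0%). HES7 was found in 104 cells (34.7%), MSGN1 in 62 (20.7%), TBX6 in 22 (7.33%) and MESP2 in 7 (2.33%). The level of a gene was its summed UMIs over all UMIs of the cells, scaled to a total of 1000000 UMIs and written as CPM. DLL3 stood at 487 CPM, RIPPLY2 at 145 CPM, DLL1 at 109 CPM, HES7 at 25.9 CPM, MSGN1 at 14.4 CPM, TBX6 at 4.79 CPM and MESP2 at 1.52 CPM. The membership thus rested on DLL3 with RIPPLY2, HES7 or MSGN1 in most cells, and TBX6 and MESP2 were near the limit of detection. LFNG, the glycosyltransferase of the Notch clock and a marker that the rule did not use, was found in 28 members (9.33%), at 6.75 CPM (4.59 to 9.58) against 1.26 CPM in the other kept cells. Its level was 5.18 CPM (3.65 to 7.14) in caudal progenitors and 5.73 CPM (3.13 to 9.62) in somite cells, 2 groups of other Hulunbuir cells chosen by their own markers, and these intervals overlap with that of the members.

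The rule genes were combined unevenly. DLL1 with DLL3 and RIPPLY2 was the most frequent combination (63 cells), followed by DLL1 with DLL3 and HES7 (44 cells), DLL3 with RIPPLY2 (39 cells), DLL3 with HES7 and DLL1 with DLL3 and MSGN1 (34 cells each) and DLL3 with MSGN1 (23 cells). In all, 125 members had 2 rule genes, 152 had 3, 22 had 4 and 1 had 5. No member had UMIs of MSGN1 and RIPPLY2 together, 4 had MSGN1 and HES7, and 9 had HES7 and RIPPLY2. All 7 MESP2 cells also had DLL1 and DLL3. Since a member needs only 2 of the genes, low overlap among members is partly set by the rule.

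**Figure D1:**
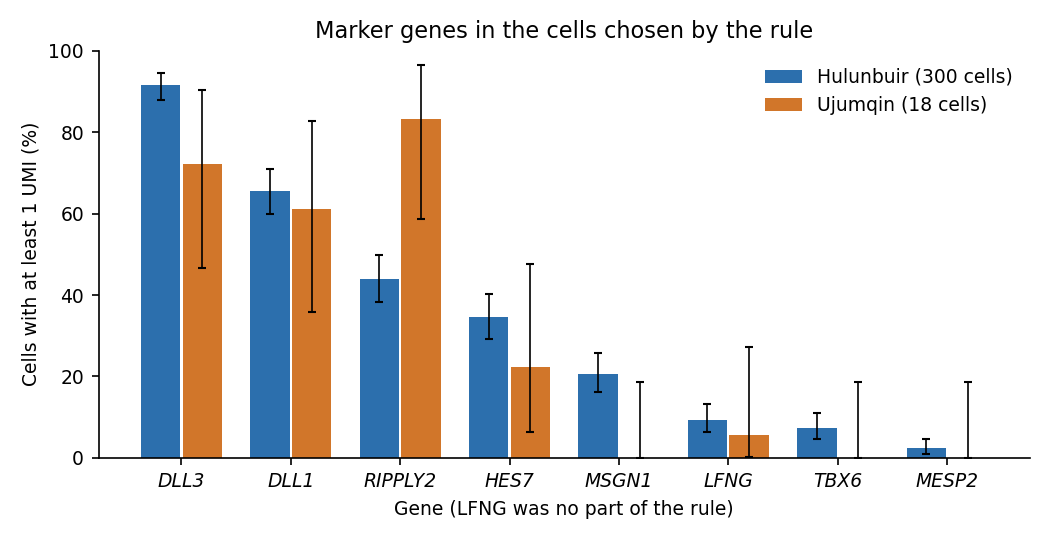
Percent of cells with a UMI (y axis) for each rule gene and LFNG (x axis) in the 300 Hulunbuir and the 18 Ujumqin members, with exact 95% binomial intervals for counting error as bars. DLL3 leads in the Hulunbuir members at 91.7%, while RIPPLY2 leads in the Ujumqin members, in 15 of 18 cells, and TBX6, MSGN1 and MESP2 have no UMI there.

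The overlap was also counted over all cells of clusters that were built without any listed gene. Most members lay in 2 of the 15 Hulunbuir clusters, cluster 5 with 146 of its 822 cells and cluster 11 with 91 of its 214 cells, together 237 of 300 members (79.0%). These clusters are singled out because they hold most members, so their shares of rule genes are a description. Within cluster 5, HES7 had a UMI in 4 of 58 cells with MSGN1 (6.90%, interval 1.91 to 16.7) and in 10.6% of the cells without (8.51 to 13.0), which overlap. RIPPLY2 was seen in 0 of the 58 MSGN1 cells, which allows a share of up to 5.17%, and in 1.83% of the others, so a difference was not detectable at this depth. RIPPLY2 had a UMI in 38.3% of cluster 11, 1.70% of cluster 5 and 0 to 3.87% of the 13 other clusters. MSGN1 was found in 7.06% of cluster 5, in no cell of cluster 11 and in at most 0.575% of the cells of each other cluster. HES7 was found in 10.3% of cluster 5, in 5.61% of cluster 11 and in 0 to 8.58% of the others.

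**Figure D2:**
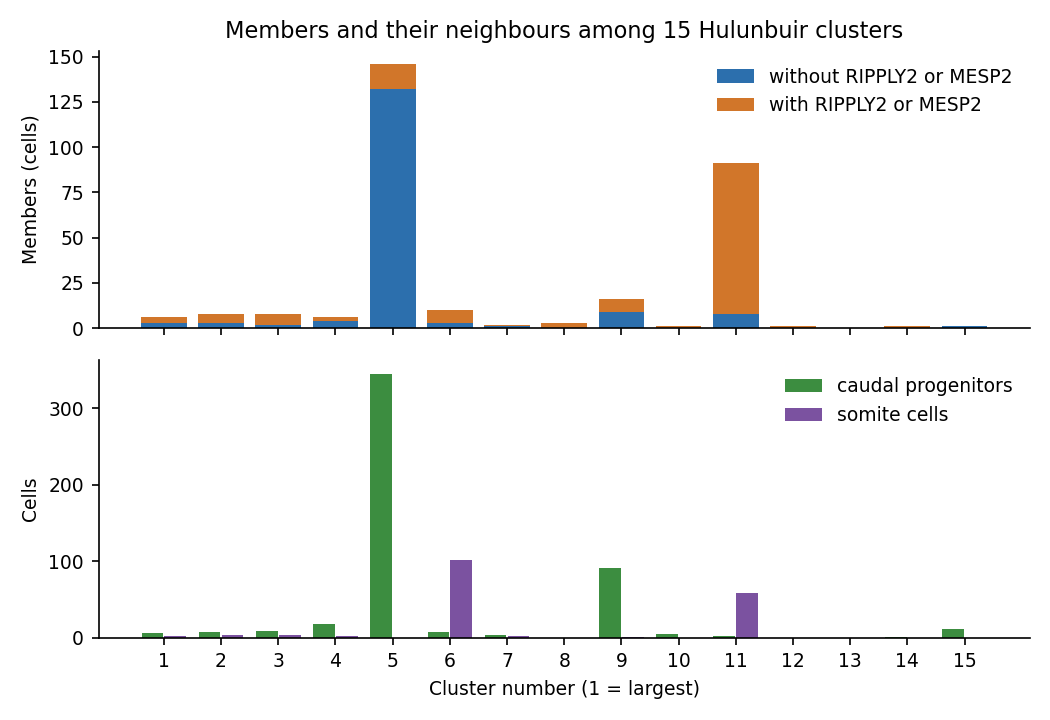
Members of the 15 Hulunbuir clusters built without listed genes, as the number of members with and without RIPPLY2 or MESP2 in each cluster. Cluster 5 holds 132 members without and 14 with these genes, and cluster 11 holds 83 with and 8 without.

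RIPPLY2 and MESP2 mark the anterior end of the tissue in textbook accounts, and the members were divided by them. A UMI of RIPPLY2 or MESP2 was present in 134 members, and the other 166 had none. The groups had medians of 12622.5 and 14124 UMIs. Genes were compared by the ratio of levels and called at a ratio of at least 2, where the higher group had at least 50 CPM and 20 UMIs. Of 2013 genes that reached this minimum, 47 (2.33%) were higher in members with RIPPLY2 or MESP2 and 25 (1.24%) were lower. These are cells of 1 pooled library, so the ratios compare cells and carry no replicate error.

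CER1, a secreted antagonist of BMP and Nodal signals, showed the largest ratio. It stood at 398 CPM (interval 371 to 427) in members with RIPPLY2 or MESP2 and at 1.52 CPM (0.415 to 3.90) in the others, a log2 ratio of 8.03 (6.67 to 9.91). It had a UMI in 70 of 134 cells of the former and in 1 of 166 of the latter, and in the former its cells had a median of 6.5 CER1 UMIs and at most 48. DEPP1, a FOXO target, stood at 336 CPM against 6.09 CPM (log2 ratio 5.79), and MEOX1, a homeobox factor of forming somites, at 121 CPM against 4.57 CPM (4.73). MEOX1, like CER1, was seen in 70 of the 134 cells, and 58 of these had both genes.

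The remaining genes of largest ratio were secreted and nuclear factors of several kinds. The neuropeptide gene GRP stood at 58.5 CPM against 3.43 CPM and the homeobox gene BARX2 at 54.5 CPM against 3.81 CPM. GADD45G, a growth arrest and DNA damage gene, stood at 151 CPM against 19.8 CPM. The cardiac actin gene ACTC1 stood at 64.1 CPM against 10.7 CPM and FST, whose product follistatin binds activin, at 157 CPM against 26.3 CPM. The adhesion molecule gene CADM1 and the endoplasmic reticulum stress gene HERPUD1 had log2 ratios of 2.28 and 2.03.

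Lower in members with RIPPLY2 or MESP2 were 2 ligands, 2 homeobox genes and a phosphatase among others. WNT5B, a WNT ligand, was at 44.8 CPM in members with RIPPLY2 or MESP2 and at 226 CPM in the others, a log2 ratio of -2.33 (interval -2.67 to -2.01). FGF8, an FGF ligand, was at 42.2 CPM against 212 CPM (log2 ratio -2.33). FGF8 had a UMI in 30 of 134 and in 133 of 166 cells. The caudal homeobox genes CDX2 (19.3 against 93.7 CPM) and CDX4 (16.8 against 60.6 CPM) had log2 ratios of -2.28 and -1.85. DUSP6, a phosphatase that is induced by FGF signals, was at 139 against 392 CPM, and ID1, a target of BMP signals, at 471 against 1313 CPM.

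The list also held genes outside these pathways. RCN2, a calcium-binding protein of the endoplasmic reticulum, was at 320.1 CPM against 1238 CPM, and ERICH2, which codes for a glutamate-rich protein, at 44.8 against 139 CPM. SLC2A5, a sugar transporter, was at 55.0 CPM against 203 CPM.

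All 19 genes named for this comparison kept their direction and a ratio of at least 2 under each of the 5 alternatives run for them, including the use of members of clusters 5 and 11 only.

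**Figure D3:**
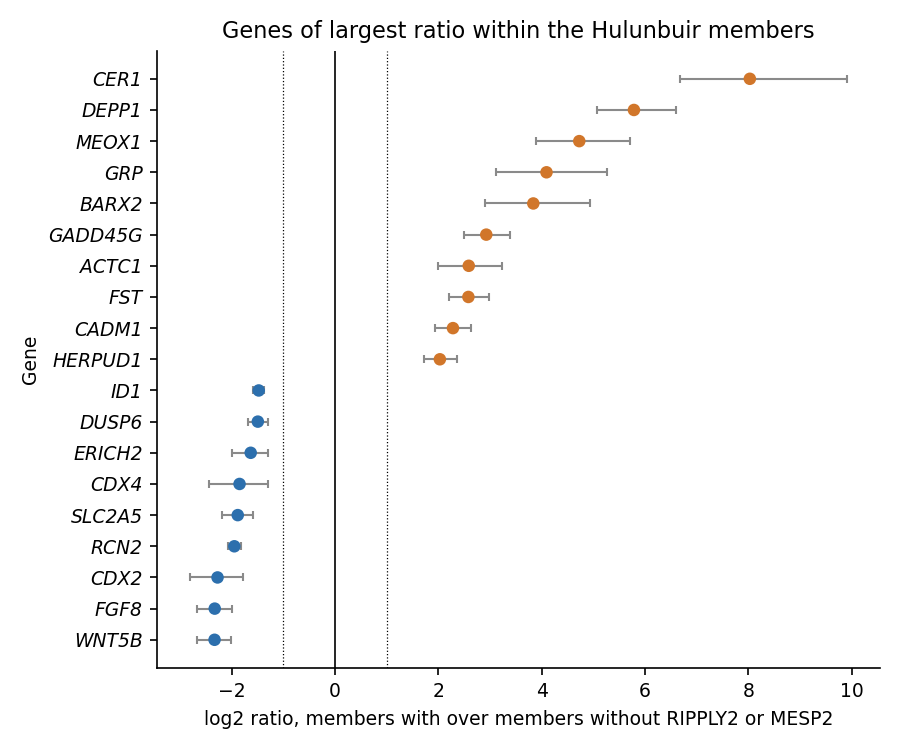
Log2 ratio of levels (x axis) in Hulunbuir members with over those without RIPPLY2 or MESP2, for 19 of the genes of largest ratio in both directions (y axis), with 95% intervals for counting error and dotted lines at a ratio of 2. CER1 lies at 8.03 and WNT5B and FGF8 lie at -2.33.

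CER1 and FGF8 were rarely found in the same cell. Of the 300 members, 65 had CER1 without FGF8, 157 had FGF8 without CER1, 6 had both and 72 had neither. By contrast, 59 members had CER1 with MEOX1, and 139 had FGF8 with WNT5B. The shares were recomputed after every cell was thinned to 5000 UMIs, which left 123 members with and 165 without RIPPLY2 or MESP2. CER1 was then present in 47.2% (38.1 to 56.4) of the former and in 0 of 165 of the latter, which allows a share of cells with a UMI of up to 1.82% at this thinned depth. FGF8 was present in 14.6% (8.91 to 22.1) and in 60.6% (52.7 to 68.1), before thinning in 22.4% and 80.1%. As a background of the same library, added after these values were seen, Hulunbuir cells that had UMIs in at least 2 of 6 endothelial markers and met none of the rules for members, caudal progenitors or somite cells were thinned too, which left 435 cells and left out 31 shallower ones. Their median was 19470 UMIs before thinning. CER1 had a UMI in 0 of them (up to 0.690%), FGF8 in 2 (0.460%), MEOX1 in 1 (0.230%) and DLL3 in 18 (4.14%), and RIPPLY2, HES7, MSGN1 and TBX6 in none. DEPP1 was found in 19.1% of these endothelial cells, and WNT5B in 1.38%.

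The members with RIPPLY2 or MESP2 were not alike across clusters. The 83 of them in cluster 11 had CER1 at 718 CPM, MEOX1 at 220 CPM and FGF8 at 8.80 CPM, and 46 of them had 2 or more RIPPLY2 UMIs. The 14 in cluster 5 each had a single RIPPLY2 UMI, no CER1 and FGF8 at 224 CPM. The 37 in other clusters had CER1 at 66.0 CPM, DLL3 at 114 CPM and a higher median of 16702 UMIs, and 29 of them had a single RIPPLY2 UMI. A single UMI can also come from free RNA or from a droplet with several cells, whose part was not tested. Cluster 11 further held 123 cells that were no members, with CER1 at 186 CPM and MEOX1 at 118 CPM. The members without RIPPLY2 or MESP2 were mixed as well. The 132 of them in cluster 5 had DLL3 at 574 CPM and no CER1. The 8 in cluster 11 had MEOX1 at 81.1 CPM and CER1 at 46.4 CPM. The 26 in other clusters had DLL3 at 137 CPM and a median of 21210 UMIs.

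The pathway lists are given by their counts, each read against the 2.33% higher and 1.24% lower among all tested genes, whose median log2 ratio was 0.056. The lists were chosen with earlier results of these data known, and most of their genes lay under the minimum. Of 20 FGF genes in the files 3 were tested, and FGF8 and DUSP6 were lower and the receptor FGFR1 was higher (113 against 38.5 CPM). Of 22 WNT genes 4 were tested, and WNT5B and the inhibitor NKD1 were lower. Of 18 tail bud factors 5 were tested, with CDX2 and CDX4 lower and FST higher. Both tested somite genes, MEOX1 and PAX3, were higher. Of 36 HOX genes 6 were tested, with HOXA3, HOXA9 and HOXC4 lower, HOXB9 higher (121 against 52.9 CPM) and a median log2 ratio of -0.91.

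The list of Notch and segmentation clock genes beyond the rule had 2 tested genes. The WNT inhibitor NKD1 was lower, while RBPJ, the DNA-binding partner of Notch, differed by less than 2-fold (88.0 against 76.2 CPM). Among 12 anterior genes in the files CER1 was higher and the receptor EPHA4 lower (23.4 against 50.3 CPM), and MESP1 had no UMI in any member. Of 3 tested retinoic acid genes the binding protein CRABP1 was lower (935 against 1981 CPM). Of 3 tested genes of BMP and TGF-beta, FST was higher and ID1 lower. IGF2 and IGFBP5 were higher among 4 tested genes of the IGF system, and ZEB2, COL1A1 and COL1A2 were higher among 6 genes of the epithelial to mesenchymal transition, whose median was 1.06. NKD1 and FST each counted in 2 of the lists. For list genes outside the 19 named above, such as the collagens, the direction within clusters 5 and 11 alone was not checked. Outside these clusters lay 37 of the 134 members with RIPPLY2 or MESP2 and 26 of the 166 without, whose part in these levels was not tested.

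Other lists did not separate the subgroups at this fold. None of 11 tested glycolysis genes passed (median log2 ratio -0.08), nor did any of 13 S phase genes (0.05), 25 G2/M genes (0.07), 4 immediate early genes (0.35) or 2 fat genes (0.02). No Hippo gene reached the minimum level in this comparison.

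The question of where the members stand between tail bud and somite was addressed with 2 neighbouring groups of Hulunbuir cells that were no members. Caudal progenitors were 508 cells with a UMI in at least 2 of T (brachyury), CDX2, FGF8 and NKX1-2, and somite cells were 176 cells with a UMI in at least 2 of MEOX1, MEOX2, TCF15 and PAX3. A cell that met both rules was in neither, so the levels of these 8 genes in the end groups are set by the choice. Of the members, 113 also met the caudal rule and 68 the somite rule. The 166 members without RIPPLY2 or MESP2 met the caudal rule in 100 cells and the somite rule in 5, and the 134 with them met these in 13 and 63. By cluster, 345 of the 508 caudal progenitors lay in cluster 5 and 59 of the 176 somite cells in cluster 11. The neighbouring groups thus share the clusters of most members and are not wholly separate from them.

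Genes not used to choose these groups formed a course from caudal progenitors over members without and members with RIPPLY2 or MESP2 to somite cells. WNT5B was at 246, 226, 44.8 and 5.73 CPM in this order, and CDX4 at 68.5, 60.6, 16.8 and 1.23 CPM. CYP26A1, which degrades retinoic acid, was at 48.7, 26.7, 8.65 and 1.64 CPM. FGF17 was at 24.5, 22.1 and 4.07 CPM and had no UMI in somite cells. SLC2A5 was at 252, 203, 55.0 and 9.01 CPM and RCN2 at 1281, 1238, 320.1 and 115 CPM.

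FST followed the opposite course, at 17.5, 26.3, 157 and 526 CPM. CER1 and DEPP1 were highest in the members with RIPPLY2 or MESP2 and lower on both sides. CER1 had no UMI in caudal progenitors and stood at 1.52, 398 and 128 CPM in the other groups, and DEPP1 stood at 2.38, 6.09, 336 and 72.5 CPM. FGF18, an FGF ligand, had no UMI in either of the posterior groups and stood at 22.9 and 9.01 CPM in the members with RIPPLY2 or MESP2 and the somite cells. RIPPLY1, a paralogue of RIPPLY2, also had no UMI in the posterior groups and stood at 13.7 and 4.09 CPM. RSPO3, which enhances WNT signals, was at 129, 164, 243 and 105 CPM.

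Of 104 listed genes that reached the minimum level in at least 1 of the 4 groups, 14 (13.5%) were lower at every step, against 123 of all 2091 genes at this minimum (5.88%). Some of the steps lie within the counting error, such as that of DUSP6 from 393 to 392 CPM, and the lists were chosen with earlier results known. The 14 were WNT5B, CDX4, NKD1, DUSP6, SOX2, LIN28A, EPCAM, CDH2, HOXA3, HOXA6, HOXC9 and IGFBP2, with FGF8 and CDX2 that the caudal rule used. All 14 were at least 2-fold lower in somite cells than in caudal progenitors, against 37 of all 2091 genes (1.77%) with both traits. In all, 20 listed genes were 2-fold lower with or without a fall at every step, and their share over all genes was not taken. Another 11 (10.6%) were higher at every step, against 192 of all genes (9.18%). These were FST, IGFBP5, SFRP1, TWIST1, NES, FABP3, CDCA3, KIF20B, LBR and TPX2, with MEOX1 that the somite rule used. Of them, 6 were at least 2-fold higher in somite cells than in caudal progenitors, against 20 of all 2091 genes (0.956%) with both traits.

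**Figure D4:**
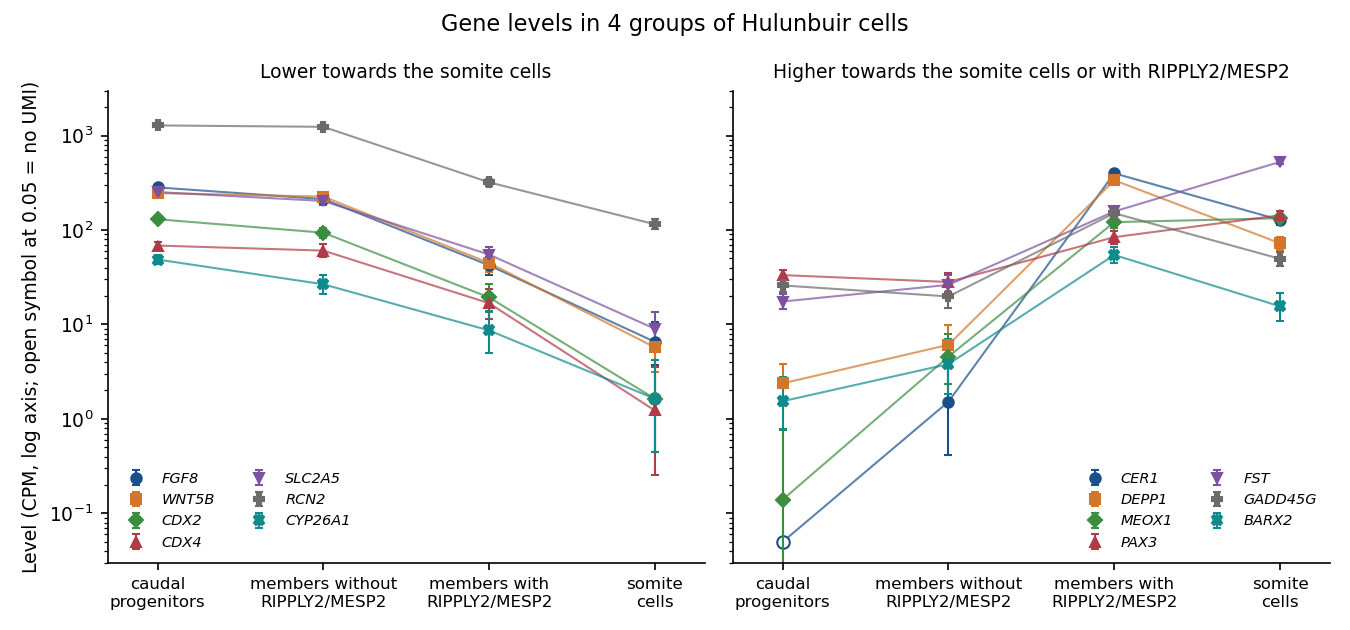
Level in CPM (y axis, log scale) in caudal progenitors, members without and with RIPPLY2 or MESP2, and somite cells of the Hulunbuir library (x axis), with 95% Poisson intervals for counting error and open symbols at 0.05 for a level of 0. WNT5B falls from 246 to 5.73 CPM, while CER1 and DEPP1 peak in members with RIPPLY2 or MESP2 at 398 and 336 CPM.

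Members without RIPPLY2 or MESP2 were very close to the caudal progenitors at this minimum. This is in part set by the choice, since 100 of these 166 members met the caudal rule themselves. Of 1899 tested genes, 0 (0%) were at least 2-fold higher and 2 (0.105%) lower. The lower gene with a symbol was SOX2, a factor of neural and axial progenitors, at a log2 ratio of -1.37 (interval -1.65 to -1.10) and 124 CPM in caudal progenitors. FGF8 and CDX2 of the caudal rule, and DLL1 and DLL3 of the members' rule, all differed by less than 2-fold. TBX6 (7.24 against 0.140 CPM), MSGN1 (25.1 against 0.420 CPM) and HES7 (41.5 against 2.52 CPM) were under the minimum and could not be called. Their levels are set by the members' rule. DUSP6 was at 392 against 393 CPM.

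All 300 members together differed from caudal progenitors mainly through the cells with RIPPLY2 or MESP2. Of 1928 genes tested, 12 (0.622%) were higher and 4 (0.207%) lower. CER1 was at 171 CPM in members and had no UMI in caudal progenitors. Its ratio was 408 against a floor of 3 counts over the group, and the lower limit of the interval was 331. MEOX1 (54.5 against 0.14 CPM, 1 UMI in caudal progenitors), DEPP1, FST, CITED1, GADD45G, STOX1, PTN, CADM1 and HERPUD1 were the others of largest ratio. The low MEOX1 of caudal progenitors is set by the choice, since cells that met the somite rule were left out of that group. SOX2 was lower at 47.1 CPM against 124 CPM, as were FGF8 and CDX2 of the caudal rule.

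Members with RIPPLY2 or MESP2 differed from the somite cells in more genes. Of 2013 genes tested, 30 (1.49%) were higher and 16 (0.795%) lower. DEPP1 stood at 336 CPM against 72.5 CPM, CRABP1 at 935 CPM against 208 CPM, BARX2 at 54.5 CPM against 15.6 CPM and CER1 at 398 CPM against 128 CPM. SLC2A5, STOX1, ACTC1, GADD45G and the chemokine receptor CXCR4 had ratios between 2.93 and 6.10. Lower were the sperm flagellum gene SPAG6 (3.05 against 64.7 CPM), the nuclear receptors NR2F1 and NR2F2, the endothelin receptor EDNRA (34.6 against 148 CPM), TWIST1 (16.3 against 61.8 CPM), COL5A2, MICALL2, PLPP3, APOA1 and FST (157 against 526 CPM).

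All 300 members against somite cells gave 37 of 1988 genes (1.86%) higher and 27 (1.36%) lower. The higher genes of largest ratio were CDX2, WNT5B, FGF8, SLC2A5, EPCAM, CRABP1, RCN2, ERICH2 and HOXC9, and CDX2 stood at 61.9 CPM against 1.64 CPM. The low CDX2 and FGF8 of somite cells are set by the choice, since cells that met the caudal rule were left out of that group. The lower genes of largest ratio were SPAG6, NR2F1, FST, MICALL2, EDNRA, TWIST1, PLPP3, NR2F2, COL5A2 and IQGAP2.

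Brachyury, listed as T, was found in 14 members. The 132 members with RIPPLY2 or MESP2 and no T were set against the 12 with T and neither of them, where 105 of 1960 genes (5.36%) were higher and 34 (1.73%) lower. With 12 cells, genes near the minimum rest on few UMIs in the group with T. FST was at 160.0 CPM against 4.66 CPM, CADM1 at 168 CPM against 9.32 CPM and CITED1 at 273 CPM against 23.3 CPM. CER1, DEPP1 and MEOX1 had no UMI in the 12 cells. Against a floor of 3 counts their ratios were 29.0, 24.5 and 8.82, with lower limits of 23.5, 19.9 and 7.12. GRP, PPP1R14A, APOA1 and STOX1 were the other higher genes of largest ratio. FGF8 was at 34.2 CPM against 214 CPM and WNT5B at 43.0 CPM against 247 CPM. CDX2, SLC2A5, RCN2, SCAPER, ERICH2, ID1 and LAMP2 were also lower.

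Against all other kept Hulunbuir cells, which the rule itself contrasts, 50 of 2033 genes (2.46%) were higher in members and 64 (3.15%) lower, and nothing is read from these counts. Apart from the rule genes, CER1 (171 against 3.87 CPM), MEOX1, CITED1, DEPP1, STOX1, CXCR4, LSAMP, FGF8 and PAX3 led. DCN, LUM, COL1A1, COL1A2, COL3A1 and PCOLCE, genes of connective tissue matrix, were lower with HAND2, A2M, AKAP12 and PLVAP, and DCN stood at 39.9 CPM against 317 CPM. The single Hippo gene tested, the transcription factor TEAD4, was lower at 15.5 CPM against 53.1 CPM. YAP1 stood at 10.2 CPM against 13.3 CPM and was under the minimum.

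Of the 6 presomitic markers 5 were rule genes, so that their summed level in Hulunbuir members, 648 CPM against 63.4 CPM in the other kept cells, is set by the choice and does not check the label. The same sum was 370.3 CPM in caudal progenitors and 235 CPM in somite cells. The members also held markers of both neighbours. Markers of caudal progenitors summed to 253 CPM in members, 552 CPM in caudal progenitors and 77.5 CPM in the other kept cells, and somite markers to 122 CPM in members, 349.6 CPM in somite cells and 18.3 CPM in the other kept cells. Of 6 erythroid markers 5 were at 0 in the members and the sum was 1.09 CPM, all 5 notochord markers were at 0, and endothelial markers summed to 9.37 CPM. The gut list gave 67.1 CPM, all of it EPCAM, with the 4 other genes at 0. Neural tube markers summed to 517 CPM, mostly NES at 459 CPM, with 2 of the 6 genes at 0, against 370 CPM in the other cells.

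The cells just outside the rule had the following values. In 156 kept Hulunbuir cells RIPPLY2 was the only rule gene, and they had CER1 at 3.93 CPM, FGF8 at 2.29 CPM and a median of 18372 UMIs. The 41 cells with HES7 alone had FGF8 at 185 CPM and no CER1 UMI. The 495 cells with DLL1 and DLL3 but none of the other genes had FGF8 at 157 CPM and CER1 at 23.4 CPM. Members just inside, with 2 rule genes, had FGF8 at 113 CPM and CER1 at 67.8 CPM, and members with 3 or more had FGF8 at 159 CPM and CER1 at 247 CPM.

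The genes whose counts went most closely with TBX6 over Hulunbuir cells thinned to 5000 UMIs were ARL6IP6, TRAPPC9, HES7, NOC4L, APBA2, CXCR4, TPP1 and RREB1. The highest Pearson correlation was 0.088 over 7540 cells, of which 8 had a TBX6 UMI, and no finding is taken from it. The same measure for RIPPLY2, added after these values were seen, gave DEPP1 (0.485), FGF18 (0.397), CER1 (0.389), STOX1 (0.333), MEOX1 (0.332), DLL1 (0.327), CITED1 (0.261) and SLC6A13 (0.233), with RIPPLY2 in 110 cells. All cells share 1 library.

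The label was poorly backed in most of the 18 Ujumqin members. None had a UMI of TBX6, MSGN1 or MESP2. RIPPLY2 was found in 15, DLL3 in 13, DLL1 in 11 and HES7 in 4, and the summed presomitic markers stood at 105 CPM. Only 5 of the cells had CER1, each with RIPPLY2 and DLL3, and their UMI totals ranged from 7055 to 144503 with a median of 12121. They held 1, 7, 14, 6 and 3 CER1 UMIs and 1, 4, 2, 3 and 1 RIPPLY2 UMIs, in order of depth.

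The other 13 Ujumqin members had no CER1 and a median of 83583 UMIs. In 11 of them the genes TBX6, MSGN1, HES7, MESP2 and RIPPLY2 together gave a single UMI. Lack of CER1 alone does not go against the label, since 1 of 166 Hulunbuir members without RIPPLY2 or MESP2 had it. The single UMI alone does not either, since few UMIs were also common in Hulunbuir members. There RIPPLY2 had a median of 1 UMI in the 132 cells with it. MSGN1 gave 66 UMIs in 62 cells and HES7 gave 119 UMIs in 104 cells. These 13 Ujumqin cells had COL1A1 at 1130 CPM and AHSG, a fetal serum protein of endoderm, at 11323 CPM, of which 1 cell held 11168 UMIs. Markers of extraembryonic endoderm summed to 18626 CPM in the 18 members and to 836 CPM without that cell, which held 21183 of their 22086 UMIs. Among these 13 was a cell of 130547 UMIs with HES7, 37 DLL1 and 18 FGF8 UMIs, and it held 135 of the members' 143 SLC2A5 UMIs. Another, of 4258 UMIs, had 3 RIPPLY2, 3 DLL3 and 2 DLL1 UMIs and no COL1A1 UMI. Of the 18 members, 5 met the erythroid rule, 4 the somite rule and 1 the caudal rule. RIPPLY2 had a UMI in 101 kept Ujumqin cells, whose median was 35816 UMIs, and in 0.168% of the erythroid cells, whose median was 20185 UMIs.

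**Figure D5:**
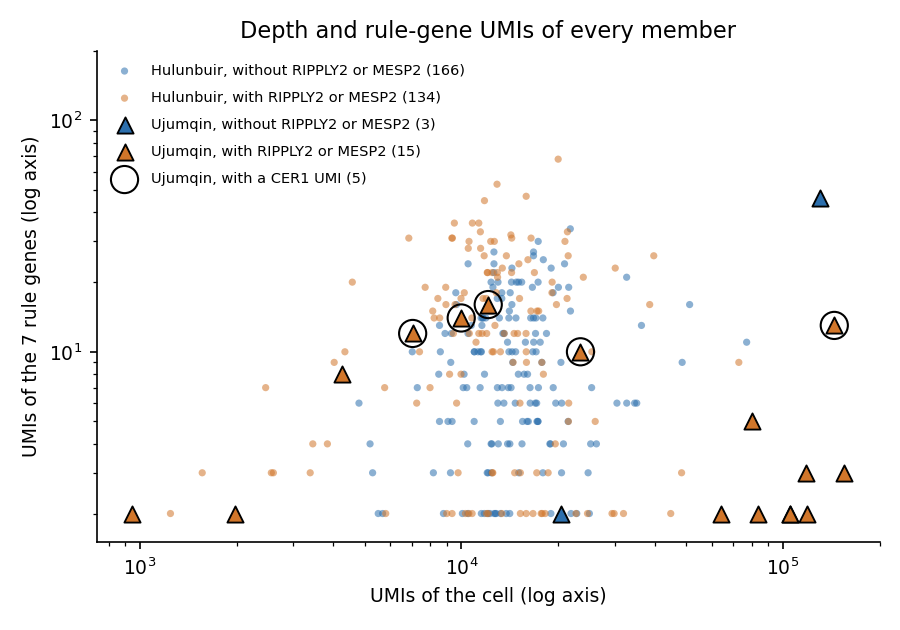
UMIs of the rule genes in each member against all UMIs of the cell (both axes logarithmic) for both libraries, with rings around cells with CER1. The Hulunbuir members centre on 13512 UMIs, while the 13 Ujumqin members without CER1 have a median of 83583 UMIs.

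With fewer than 20 Ujumqin members, no ratio between the breeds was taken, and levels stand side by side. RIPPLY2 was at 145 CPM in Hulunbuir and 20.2 CPM in Ujumqin members, CER1 at 171 and 26.1 CPM, FGF8 at 140 and 16.9 CPM, and FST at 82.3 and 93.6 CPM. COL1A1 was at 75.8 CPM and 944 CPM. Against the other kept Ujumqin cells, 165 of 1649 genes (10%) were higher in the 18 members and 49 (2.97%) lower. SLC2A5, ERICH2, CXCL14, COL2A1, TCN2, CD24, TNNI1, IGFBP2, CRABP2 and IGFBP3 led, and 1 cell held 179 of the 181 CXCL14 UMIs and 112 of the 124 ERICH2 UMIs. Genes of red blood cells, KLF1, ALAS2, AHSP and BLVRB among them, were lower together with ADIRF, MT2, NUCB2, MT1C and TSPO.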

How the data were processed

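RNA of single cells was sequenced as 1 pool of embryos per breed. The deposited values are UMI counts, not normalized, that the authors obtained by running Cell Ranger against the Rambouillet sheep reference. The matrix header and the study's methods name version 5.0.0, while the submitters' processing notes list Cell Ranger 3.1.0, Seurat 3.2.0 and R 3.6.1. The authors' normalized values and cluster names were not used here. The files hold 26478 features.

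Members and gene lists were chosen with earlier results of these data known. Symbols carried by several features were taken at the first one. Levels are ratios of summed counts, with exact 95% Poisson, Clopper-Pearson binomial and conditional binomial intervals. A gene was tested where it had 50 CPM and 20 UMIs in the higher group. Named genes are the rule genes, listed genes and, per comparison, the 10 genes with a symbol of largest ratio each way. From these, rule genes and genes whose UMIs define the other group were left out. Genes used only to keep cells out of the other group were not left out. Some genes are not reported here. Against a group at 0, the ratio used a floor of 3 counts. Leiden clusters (scanpy 1.11.5, leidenalg 0.10.2, Python 3.11.15, numpy 2.4.6, scipy 1.17.1) came from 2000 variable genes without listed genes, 30 components, 20 neighbours and a resolution of 1. Doublets were scored with Scrublet and kept, since its automatic threshold marked few cells. Scripts were tested on simulated data. With 1 library per breed there was no replicate test and no p-value. The build's genome was not used here, so no coordinates are given.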

Additional observations from a re-analysis of the deposited data

Results flagged for a closer look

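Outside the cell filter, 4 Hulunbuir barcodes met the membership rule, at 1009, 3280, 17762 and 19628 UMIs and with 10.4 to 31.2% mitochondrial UMIs. They carried DLL1 with RIPPLY2, MSGN1 with DLL1 and DLL3, DLL3 with RIPPLY2, and MSGN1 with DLL3. In the Ujumqin library 1 such barcode carried MSGN1 and DLL3, with 2609 UMIs of which 16.2% were mitochondrial.

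For 5 genes the ratio of members to the other kept cells was past 2-fold in opposite directions in the 2 libraries, a difference that was not tested. In Ujumqin the ratios were 2.55 for APOA1, 2.17 for FABP3, 3.03 for ID2, 3.61 for IGFBP5 and 4.78 for IGFBP7. In Hulunbuir they were 0.232, 0.477, 0.491, 0.336 and 0.415 in the same order. The Ujumqin ratio of APOA1 rests on few cells. It is one of the extraembryonic endoderm markers, of whose 22086 UMIs in the 18 members 1 cell held 21183. Without that cell all these markers summed to 836 CPM, while APOA1 alone stood at 772 CPM in the other kept Ujumqin cells. The erythroid rule was met by 5969 kept Ujumqin cells and 5 kept Hulunbuir cells, and the part of this difference in the 5 ratios was not tested.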

How the results depend on the processing

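No paired analysis was possible because each breed is 1 library and the labels give no replicate numbers. Of 65 alternatives over 13 results, 33 stayed within the limit and 32 moved a value. The values are counts and shares, so no direction was checked with them. The membership depended on depth and on RIPPLY2. The Hulunbuir members numbered 175 with 3 rule genes required, 131 and 56 after thinning to 5000 and 2000 UMIs, and 183 without RIPPLY2 in the rule, an alternative added after seeing the data. The Ujumqin members numbered 6, 3, 2 and 4 under the same settings. A fold of 4 left 37 genes called against the other kept cells, 5 against caudal progenitors, 21 against somite cells, 29 between members with RIPPLY2 or MESP2 and members with T, 14 between members with and without RIPPLY2 or MESP2, and 53 in Ujumqin. A minimum of 20 CPM gave 229, 39, 128, 329, 151 and 455 in that order. With 3 rule genes required, the counts were 26 against caudal progenitors, 255 in the comparison with T and 437 in Ujumqin. Alternatives added after seeing the data gave 72 in the comparison with T when all members without RIPPLY2 or MESP2 formed the other group, and 77 within clusters 5 and 11. Only members without RIPPLY2 or MESP2 gave 2 genes against caudal progenitors, also added. In Ujumqin the mean of the cells' CPM gave 323 genes, and 370 were called when genes of mitochondria, ribosomal proteins and haemoglobins were left out of the totals. Thinning to 2000 UMIs moved the share of members with DLL3 to 56.4%, FGF8 to 21.5% and MEOX1 to 10.1%. At a resolution of 2 the leading clusters held 54.7% of the members. The comparison of fold changes between the breeds was not run, because Ujumqin had 18 members. The causes were not tested. TBX6 and MESP2 had UMIs in 22 and 7 members, so that few UMIs stand behind their levels. Removing the highest doublet scores took 20 Hulunbuir and 2 Ujumqin members.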
